A study of Homo sapiens with 8 samples.

Results

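The genes described here are 4 genes of the matrix metalloprotease cluster on chromosome 11 (MMP1, MMP3, MMP10 and the pseudogene WTAPP1), the proteases MMP2 and MMP14, which lie elsewhere, and the inhibitors TIMP1, TIMP2 and TIMP3. They were chosen by symbol, with earlier results of these data known, and all 9 were found among the 27696 genes counted. Normal IMR90 cells, a line of primary fibroblasts from human embryonic lung, were kept for 3 days in medium that IMR90 ER:RAS cells had conditioned, and poly(A) RNA of the recipient cells was sequenced. ER:RAS is an oncogenic RAS fused to the estrogen receptor that becomes active with 4-hydroxytamoxifen (4-OHT), so that the donor cells enter senescence. The medium was taken at day 0, 4, 7 or 10 of 4-OHT, which gave the groups D0, D4, D7 and D10, each with 1 library from either of 2 independent experiments. The D0 recipients were the control and also received medium from ER:RAS donors. No group received unconditioned medium, and the recipients themselves were untreated normal fibroblasts of 1 cell line.

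Matrix metalloproteases (MMPs) are zinc-dependent enzymes that cut collagens and other matrix proteins. Most are secreted as inactive precursors whose propeptide must be removed by another protease, and TIMPs bind the active enzymes and block them. Collagenase and stromelysin genes lie next to each other on chromosome 11, and their secretion is a known part of the senescence-associated secretory phenotype of fibroblasts.

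In recipient fibroblasts the collagenase transcript MMP1 rose from 86.8 ± 34.6 CPM (counts per 1000000 counts of the library, SD, n = 2) at D0 to 4465 ± 1781 CPM at D10. The counts assigned to the pseudogene WTAPP1 went from 0 to 26 and 52, and whether MMP1 reads were among them was not tested. The stromelysin transcripts MMP3 and MMP10 were also at their highest at D10, but the experiments differed widely and neither passed the edgeR test by group alone. With experiment as a block in that test MMP3 passed at D10, and by DESeq2 both did. MMP2, MMP14 and the 3 TIMP genes stayed between 699.8 and 2697 CPM in all 8 libraries and none passed a test after adjustment. Relative to every one of these 5 genes, MMP1 and MMP3 increased with the day of the medium in an exact permutation test. WTAPP1 did so too, but with 0 counts in both D0 libraries its result is a description.

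The libraries held between 11708193 and 13395912 counts, so 1 count corresponded to less than 0.1 CPM. All 12 fibroblast markers were detected in a list of 12, with summed levels between 16325 and 52460 CPM, whereas 4 epithelial, 4 endothelial and 4 leukocyte markers listed in the table summed to at most 2.76, 3.895 and 3.18 CPM. The CDH1, KRT14, KDR, PTPRC and ITGAM transcripts did not exceed 3 counts in any library. The summed fibroblast markers were lowest, 16325 CPM, in D10 of experiment 2, against 40552 CPM in D10 of experiment 1 and at least 35389 CPM in the other 6 libraries. The list includes collagen genes, and its top gene COL1A2 ranged from 2862 to 14774 CPM, so the sum does not measure the share of fibroblasts alone. D10 of experiment 2 is also the library with the highest MMP1, MMP3, MMP10 and WTAPP1 and the lowest TIMP2, and the part of this difference in those levels was not tested. In bulk RNA, a larger share of cells that express a gene and more RNA of that gene per cell cannot be told apart.

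The cluster genes overlap each other in ways that bear on their counts, and some of the sequences concerned are shown for that reason. On GRCh38, MMP1 (ENSG00000196611) occupies positions 102789920 to 102798160 of chromosome 11, MMP10 (ENSG00000166670) 102770503 to 102780628 and MMP3 (ENSG00000149968) 102835801 to 102843803, all on the minus strand. WTAPP1 (ENSG00000255282), a transcribed processed pseudogene of the gene WTAP, is annotated on the plus strand from 102746968 to 102836766 and thus runs opposite to all of MMP10 and MMP1 and the end of MMP3. Its exons cover 150 exon bases of MMP1, which are 7.61% of the exon sequence of MMP1 and 4.50% of that of WTAPP1, 32 bases of MMP3 and 0 bases of MMP10. The shared bases of MMP1 lie in exon 1 (99 bases) and exon 6 (51 bases). The part in exon 6, which is coding, is at chr11:102795174-102795224 and is shown 5′ to 3′ on the MMP1 strand from the GENCODE 29 transcript.
MMP1 exon 6, shared with WTAPP1: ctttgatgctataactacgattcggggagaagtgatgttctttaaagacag

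MMP3 and MMP10, which encode closely related enzymes, share 1 identical run of 96 coding bases in exon 3 of both, so that a read of 50 bases inside it could come from either gene. Such words of 50 bases found in the other gene made up 2.88% of MMP3 and 3.36% of MMP10. The run lies at chr11:102842434-102842529 in MMP3 and at chr11:102779216-102779311 in MMP10, both on the minus strand.
MMP3 and MMP10, identical run: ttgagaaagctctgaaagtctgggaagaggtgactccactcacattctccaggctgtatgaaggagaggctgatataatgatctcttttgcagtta

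Upstream sequence was present in the RefSeq table (GRCh38.p14) for 4 of the 9 genes, MMP10, MMP14, TIMP1 and TIMP3. In the 250 bases before the start, a TATAAA began at position -31 of MMP10, counted back from the start site, and an AGGAAG at position -87 of TIMP1, and TGAGTCA was in none of the 4. Both strands were searched. Of 35116 promoters of the same length, 10.7% hold TATAAA, 28.7% AGGAAG and 4.203% TGAGTCA, so these matches are common and are given as a description. The 100 bases before the start are shown for 1 cluster gene and 1 inhibitor with the matches in capitals, at chr11:102780629-102780728 (minus strand) and chrX:47582336-47582435 (plus strand). The TIMP1 bases are upstream of the RefSeq start only, since the TIMP1 gene of GENCODE 29 begins at 47582313 and includes them.
MMP10: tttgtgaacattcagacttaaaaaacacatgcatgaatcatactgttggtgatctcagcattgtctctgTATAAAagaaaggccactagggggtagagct
TIMP1: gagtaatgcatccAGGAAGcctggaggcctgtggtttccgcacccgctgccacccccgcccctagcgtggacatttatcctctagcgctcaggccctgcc

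MMP1 is the interstitial collagenase, which opens the triple helix of fibrillar collagens. At D0 its level was 111 CPM in experiment 1 and 62.4 CPM in experiment 2, and at D4 659.6 and 617 CPM. At D7 it was 1361 and 1421 CPM, and D10 gave 3206 and 5725 CPM. MMP1 was higher at every later day than at the day before in both experiments, no library of one day overlapped another day, and the experiments were within 10% of each other's level at D4 and D7. In experiment 1 the level at D10 was 28.8 times and in experiment 2 91.8 times that at D0, and the step from D0 to D4 was 5.93-fold and 9.89-fold. By its raw count MMP1 stood at place 1798 and 3193 among all genes at D0 and at place 23 and 6 at D10, where it took 0.304% and 0.620% of all counts.

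MMP3, stromelysin 1, cuts many matrix proteins and also activates other MMP precursors. In experiment 1 its level was 19.5 CPM after D0 medium, then 26.9, 42.2 and 254 CPM after D4, D7 and D10 medium. In experiment 2 the same series read 4.29, 9.10, 23.8 and 3327 CPM. MMP3 also increased at every step in both experiments, but D4 overlapped D0, and at D10 the experiments lay further apart than the whole range from D0 to D7. The increase from D7 to D10 was 6.01-fold in experiment 1 and 140-fold in experiment 2, and experiment 2 started from the lower level. In D10 of experiment 2 MMP3 was at place 12 among all genes, against place 709 in experiment 1.

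MMP10, stromelysin 2, was close to the limit of detection until D10. Experiment 1 gave 11, 14, 12 and 24 counts from D0 to D10, and experiment 2 gave 3, 9, 6 and 148. The D10 libraries were above all others, but D0, D4 and D7 overlapped each other. Per 100 MMP3 counts, the D0 libraries had 4.72 and 5.08 MMP10 counts and those of D10 0.749 and 0.351. MMP10 shares sequence with MMP3, and whether reads of MMP3 were counted for MMP10 was not tested.

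WTAPP1 had 0, 5, 12 and 26 counts from D0 to D10 in experiment 1 and 0, 5, 13 and 52 in experiment 2. Every later day was above the day before in both experiments. A count of 0 allows up to 3 counts per library, which sets a floor of 0.235 CPM at D0. The mean level at D10, 3.08 ± 1.44 CPM (SD, n = 2), was 13.1 times that floor, that at D7 4.05 times and that at D4 1.62 times. These ratios allow for counting error at D0 but not in the later counts, which were only 5 and 5 at D4. Using only D10 of experiment 1 or of experiment 2, the level was 8.76 or 17.5 times the floor. At these counts the level of WTAPP1 is known only coarsely.

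WTAPP1 and MMP1 counts stood in nearly 1 ratio in all libraries that had any WTAPP1 count. Per 10000 MMP1 counts there were 5.88 (exact 95% binomial interval 1.91 to 13.7) and 6.04 (1.96 to 14.1) WTAPP1 counts at D4. The same ratio was 6.73 (3.48 to 11.8) and 6.95 (3.70 to 11.9) at D7 and 6.42 (4.19 to 9.41) and 7.16 (5.35 to 9.40) at D10. All 6 intervals held 6.58, the median of these same 6 ratios, while MMP1 itself differed more than 8-fold among these libraries. Because the intervals were wide and the median came from the same values, this is a description and not a test. At the median ratio the D0 libraries would have held 0.874 and 0.564 WTAPP1 counts, fewer than 1 each. The 0 counts at D0 therefore do not separate a constant ratio from a lower one. The intervals cover counting error only. The libraries were stranded but the strand setting of the counting is not given in the sources used here, and whether MMP1 reads were counted for WTAPP1 across their shared 150 exon bases was not tested.

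**Figure D1:**
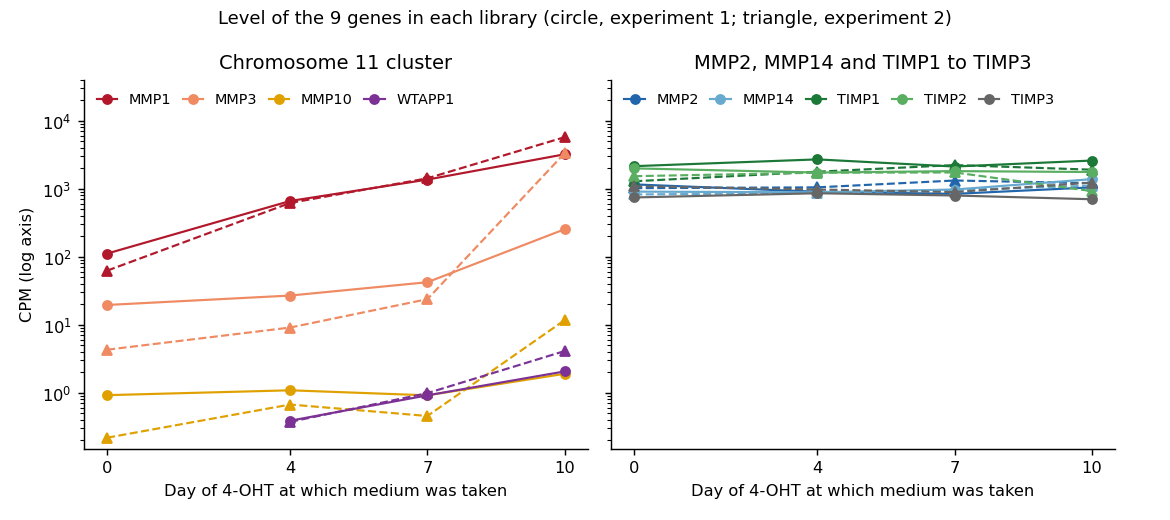
Level of each gene in each of the 8 libraries (CPM, log axis) against the day of 4-OHT at which the medium was taken, with experiment 1 as circles and solid lines and experiment 2 as triangles and dashed lines. MMP1 rises at every step in both experiments. MMP3 and MMP10 are higher in experiment 1 at D0, D4 and D7 and higher in experiment 2 at D10. WTAPP1 is drawn only where it had counts, and the 5 genes on the right stay within a narrow band.

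Among the genes outside the cluster, MMP2 is gelatinase A, and MMP14 is a membrane-anchored protease that activates the MMP2 precursor at the cell surface. MMP2 was at 1156 and 1019 CPM at D0 and at 1046 and 1207 CPM at D10, with its lowest level, 840 CPM, and its highest, 1319 CPM, both at D7. The D7 libraries of the 2 experiments therefore enclosed all other values of MMP2. MMP14 read 905, 885, 973 and 1381 CPM from D0 to D10 in experiment 1 and 822, 868, 957 and 1109 CPM in experiment 2. The MMP14 libraries at D7 and D10 lay above both at D0, and the ratio of D10 to D0 was 1.53 in experiment 1 and 1.35 in experiment 2.

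TIMP1 inhibits most secreted MMPs and was the most abundant of the 9 transcripts per length until D7. From D0 to D10 it read 2145, 2697, 2118 and 2594 CPM in experiment 1 and 1287, 1777, 2226 and 1904 CPM in experiment 2, and each later group overlapped D0. TIMP2, which also takes part in MMP2 activation by MMP14, was between 1719 and 1814 CPM at D4 and D7 and at 1990 and 1528 CPM at D0. At D10 it was 1758 CPM in experiment 1 and 922 CPM in experiment 2, the lowest of all 8 libraries. TIMP3, which stays bound to the matrix, was at 744 and 1090 CPM at D0 and at 700 and 1230 CPM at D10, and it was higher in experiment 2 at every day.

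Counts depend on transcript length, so levels of different genes were compared per kilobase of exon. At D0 the order was TIMP1 (1113 ± 394 CPM per kilobase, SD, n = 2), TIMP2 (312 ± 58.0), MMP2 (220.4 ± 19.8), TIMP3 (199 ± 53.2), MMP14 (193 ± 13.2) and MMP1 (44.1 ± 17.6). MMP3, MMP10 and WTAPP1 followed with 5.82, 0.324 and 0 CPM per kilobase. The libraries of MMP2 overlapped those of TIMP3, and those of TIMP3 overlapped those of MMP14, so the place of TIMP3 is not resolved, whereas both MMP2 libraries lay above both of MMP14. MMP1 thus came after all 5 genes outside the cluster at D0, with libraries that did not overlap theirs.

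MMP1 took the place after TIMP1 at D4, with 324 ± 15.3 CPM per kilobase, and held it at D7 with 706 ± 21.7, in both cases without overlap of its libraries with those of its neighbours. Its order against TIMP2 at D4 depends on the length used, since TIMP2 had 306 CPM per kilobase of all exons and 472 of its longest transcript. At D10 MMP1 was first, with 2267 ± 904, but its libraries overlapped those of TIMP1 (1459 ± 317). MMP3 moved from place 7 of 9 to place 3 in the order of means, with 124 CPM per kilobase in experiment 1 and 1625 in experiment 2, a range that holds all of MMP14, TIMP2, MMP2 and TIMP3. MMP10 and WTAPP1 stayed last in every group.

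**Figure D2:**
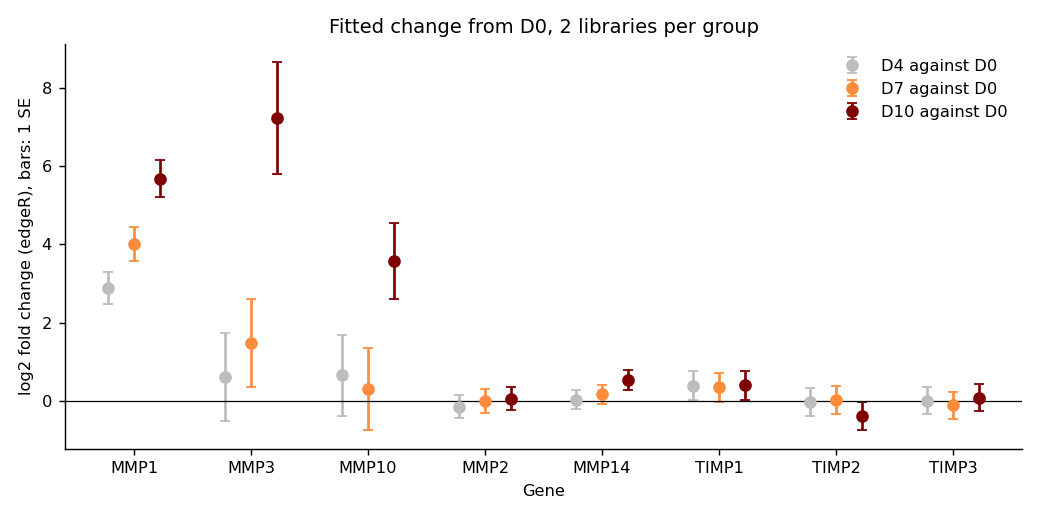
Fitted log2 fold change at D4, D7 and D10 against D0 for 8 of the genes, with 1 standard error, from edgeR over all 8 libraries. MMP1 increases from 2.88 to 5.68 with short error bars, MMP3 and MMP10 have long ones, and the 5 genes outside the cluster stay within 0.53 of 0. WTAPP1 is left out because a fold change against 0 counts depends on the method.

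The question of the comparison by group was which of these genes differed from D0 after medium of each day. In edgeR's quasi-likelihood fit, 40 of 13798 genes (0.29%) reached a Benjamini-Hochberg adjusted p under 0.05 at D10, 27 of them higher, and 2 of the 9 genes were among them, MMP1 and WTAPP1. WTAPP1 had 0 counts in both D0 libraries and passed the filter on low counts only through the later groups, so its calls, here and in the counts that follow, are a description. MMP1 had a log2 fold change of 5.68 ± 0.47 (SE), adjusted p = 0.0106 by edgeR, and WTAPP1 had an adjusted p of 0.0402. MMP3 had a larger but less certain log2 fold change of 7.24 ± 1.43 with adjusted p = 0.0933 by edgeR, and MMP10 one of 3.58 ± 0.98 with adjusted p = 0.222. Outside the cluster the edgeR log2 fold changes were 0.53 ± 0.25 for MMP14 (adjusted p = 0.711), 0.39 ± 0.37 for TIMP1, -0.39 ± 0.35 for TIMP2, 0.07 ± 0.34 for TIMP3 and 0.05 ± 0.30 for MMP2, each of these 4 with adjusted p = 0.998. The median over the 9 genes was 0.53 at D10, beside 0.00 over all genes tested. It is the value of MMP14 whether WTAPP1 enters with its fitted value or its ratio to the floor.

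The D10 calls of MMP1 and WTAPP1 were lost without either D0 library and with only D0 and D10 in the fit, while the log2 fold change of MMP1 was then 6.16, 5.32 and 5.70 in place of 5.68. The cause of the lost calls was not tested. Without D0 of experiment 1 the edgeR adjusted p of MMP1 was 0.0648 and that of WTAPP1 0.180, and without D0 of experiment 2 they were 0.141 and 0.244. With only D0 and D10 they were 0.0969 and 0.157. MMP1 kept its call without any 1 of the other 6 libraries, whereas WTAPP1 kept it only without D10 of experiment 1, with edgeR adjusted p = 0.0192, and lost it without the other 5, the highest of these being 0.117 without D10 of experiment 2. With library totals in place of TMM scaling its adjusted p was 0.0548. Without D10 of experiment 2, the log2 fold change of MMP3 was 4.42 and that of MMP10 1.75. Without D10 of experiment 1, MMP3 reached 8.15 with adjusted p = 0.0210 and MMP10 4.39 with adjusted p = 0.0479, both by edgeR.

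The libraries of the same experiment deviated together, and with experiment as a block in edgeR more was called. At D10 the block called 688 genes (4.99%) and 3 of the 9, MMP1 (adjusted p = 0.000454), WTAPP1 (0.00341) and MMP3 (0.0201), while MMP10 had adjusted p = 0.0821. DESeq2, run without the filter on low counts, called 379 of 27696 genes (1.37%) at D10 and all 4 cluster genes. Its shares, here and below, are of 27696 genes, and those of edgeR with or without the block are of 13798. The 2 kinds of share are therefore not directly comparable. Neither the block nor DESeq2 called any of MMP2, MMP14 and the TIMP genes in any comparison.

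At D4 and D7 edgeR without a block called 0 of 13798 genes (0%), with 409 and 599 genes at an unadjusted p under 0.05, among them MMP1 and WTAPP1 on both days. DESeq2 called 44 (0.159%) and 112 genes (0.404%). The log2 fold change of MMP1 was 2.88 ± 0.42 for D4 (edgeR adjusted p = 0.702) and 4.00 ± 0.44 for D7 (adjusted p = 0.120). With the block, 38 genes (0.275%) were called at D4, among them MMP1 with adjusted p = 0.0219 by edgeR. The block called 172 genes (1.25%) at D7, among them MMP1 (adjusted p = 0.00568) and WTAPP1 (adjusted p = 0.0439) by edgeR. MMP3 showed log2 fold changes of 0.60 ± 1.13 at D4 and 1.47 ± 1.14 at D7 and was not called on either day by edgeR with or without the block.

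By raw order rather than a model, both D10 libraries were above both D0 libraries for 5 of the 9 genes (MMP1, MMP3, MMP10, WTAPP1 and MMP14), beside 15% of all genes tested. The same held for 4 of the 9 at D7 (MMP1, MMP3, WTAPP1 and MMP14), beside 13.7% of all genes, and for 2 at D4 (MMP1 and WTAPP1), beside 9.73%. None of the 9 had both libraries below D0 on any day, beside 12.6%, 15.2% and 16% of all genes at D4, D7 and D10. Levels that increased at every step in both experiments were found for MMP1, MMP3 and WTAPP1 and for 1.33% of all genes tested.

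Between later days, D10 was compared with D4 and D7 to see where the increase fell. EdgeR called 1 gene (0.00725%) between D10 and D4, the complement gene C3, which was named after its value was seen, and 0 genes (0%) between D10 and D7, where 489 had an unadjusted p under 0.05 and DESeq2 called 66 (0.238%), among them MMP1 and MMP3. MMP1 had a log2 difference of 2.81 ± 0.41 between D10 and D4 (edgeR adjusted p = 0.135) and 1.68 ± 0.40 between D10 and D7 (adjusted p = 0.784). For MMP3 the values were 6.64 ± 1.39 (edgeR adjusted p = 0.276) and 5.76 ± 1.33 (adjusted p = 0.775). With the block, edgeR called 352 genes (2.55%) between D10 and D4, among them MMP1 (adjusted p = 0.00994), WTAPP1 (0.0264) and MMP3 (0.0404), and 44 genes (0.319%) but none of the 9 between D10 and D7. Without D10 of experiment 1, MMP1 (adjusted p = 0.0187) and MMP3 (adjusted p = 0.0317) also passed between D10 and D4 by edgeR.

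A straight line over the day of the medium used all 8 libraries at once. Of 13798 genes 163 (1.18%) had a slope past an adjusted p of 0.05 by edgeR, and 2 of the 9 were among them. MMP1 rose by 0.55 ± 0.05 (SE) on the log2 scale per day (edgeR adjusted p = 0.00169). WTAPP1 passed with adjusted p = 0.00580 by edgeR, its slope being left out because its size depends on how the 0 counts at D0 are treated. Both kept their calls with the block, which called 593 genes (4.3%), and without any 1 of the 8 libraries, with adjusted p up to 0.0148 and 0.0363. MMP3 had a slope of 0.72 ± 0.15 (edgeR adjusted p = 0.0608) and MMP10 one of 0.37 ± 0.10 (adjusted p = 0.143). The slopes of the 5 genes outside the cluster lay between -0.03 and 0.05 per day, with MMP14 the highest at 0.05 ± 0.02 (edgeR adjusted p = 0.470).

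Comparing a cluster gene with a protease or inhibitor of the same library removes library size from the comparison. From D0 to D10, the ratio of MMP1 to TIMP1 in CPM per kilobase was 0.0406, 0.191, 0.503 and 0.967 in experiment 1 and 0.0379, 0.272, 0.4996 and 2.35 in experiment 2. MMP1 was thus below TIMP1 in every library up to D7, close to it in D10 of experiment 1 and above it only in D10 of experiment 2. Per kilobase of the longest transcript, MMP1 was further below TIMP1 in D10 of experiment 1, at 1627 against 2369 CPM. By that length it was still above TIMP1 in D10 of experiment 2, at 2906 against 1738 CPM. The ratio of MMP1 to MMP2 went from 0.241 and 0.153 at D0 to 7.67 and 11.9 at D10, and that to MMP14 from 0.278 and 0.172 to 5.26 and 11.699. MMP3 reached 0.0736 of the level of TIMP1 at D10 in experiment 1 and 1.32 of it in experiment 2, from 0.00685 and 0.00251 at D0. The order in experiment 2 depends on the length used. Per kilobase of the longest transcript, MMP3 was below TIMP1 in that D10 library, at 1650 against 1738 CPM.

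**Figure D3:**
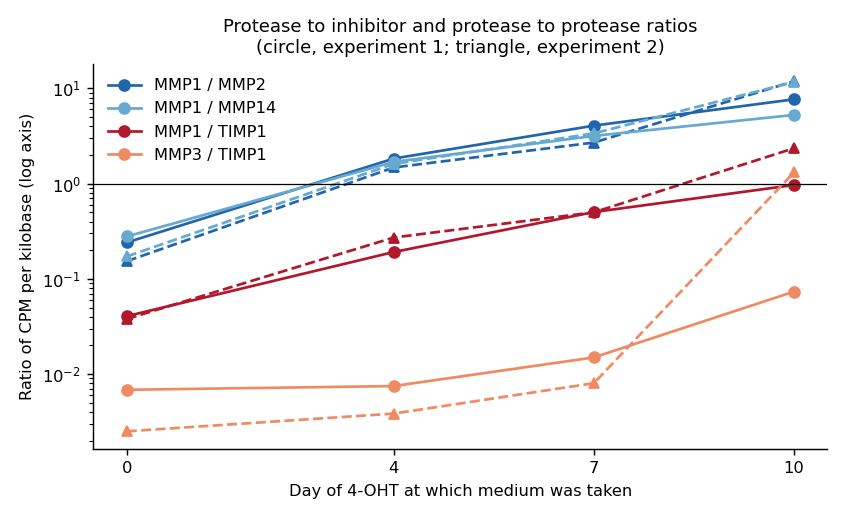
Ratio of CPM per kilobase of MMP1 to TIMP1, MMP2 and MMP14 and of MMP3 to TIMP1 (log axis) against the day of the medium, with experiment 1 as circles and experiment 2 as triangles and a line at equal levels. MMP1 passes MMP2 and MMP14 by D4 in both experiments and passes TIMP1 only at D10 in experiment 2.

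The slope of the log2 ratio over days was tested for all 20 pairs of a cluster gene and a gene outside it, with days permuted within each experiment, which gives 576 arrangements. Of the 20 ratios 15 had a Benjamini-Hochberg adjusted p under 0.05, adjusted over the 20 tests, in this exact two-sided permutation test, and these were all 5 of MMP1, MMP3 and WTAPP1 each. The slopes of MMP1 lay between 0.51 (to MMP14) and 0.59 (to TIMP2) per day, each with exact permutation p = 0.00174, the smallest these arrangements can give, and adjusted p = 0.00434. The slopes of MMP3 lay between 0.56 (to MMP14) and 0.65 (to TIMP2), with exact permutation p between 0.0104 and 0.0156. With 2 counts added to each value, which sets their size where WTAPP1 had 0 counts, the slopes of WTAPP1 lay between 0.37 and 0.46, with exact permutation p of 0.00174 or 0.00347. The WTAPP1 ratios are a description, because this gene passed the filter on low counts only through the later groups. For MMP10 the slopes were 0.20 to 0.29 and the exact permutation p 0.0469 to 0.141, none past 0.05 after adjustment. The 5 MMP3 ratios missed the threshold without D4 of experiment 2, with adjusted permutation p up to 0.102, and that to TIMP1 also without D10 of experiment 1 (0.0648). The 5 MMP10 ratios passed it without D7 of experiment 2, the largest adjusted permutation p then being 0.0486. The 20 ratios share genes and libraries and are not independent of each other. Their genes were chosen with earlier results of these data known, and the adjustment covers only these ratios.

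Within the cluster the ratio of MMP3 to MMP1 did not keep 1 direction. Per 100 MMP1 counts there were 17.5 and 6.88 MMP3 counts at D0, 3.10 and 1.67 at D7, and 7.91 and 58.1 at D10. The lowest values were those of D4 and D7, where MMP1 had already increased and MMP3 was still under 43 CPM.

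**Figure D4:**
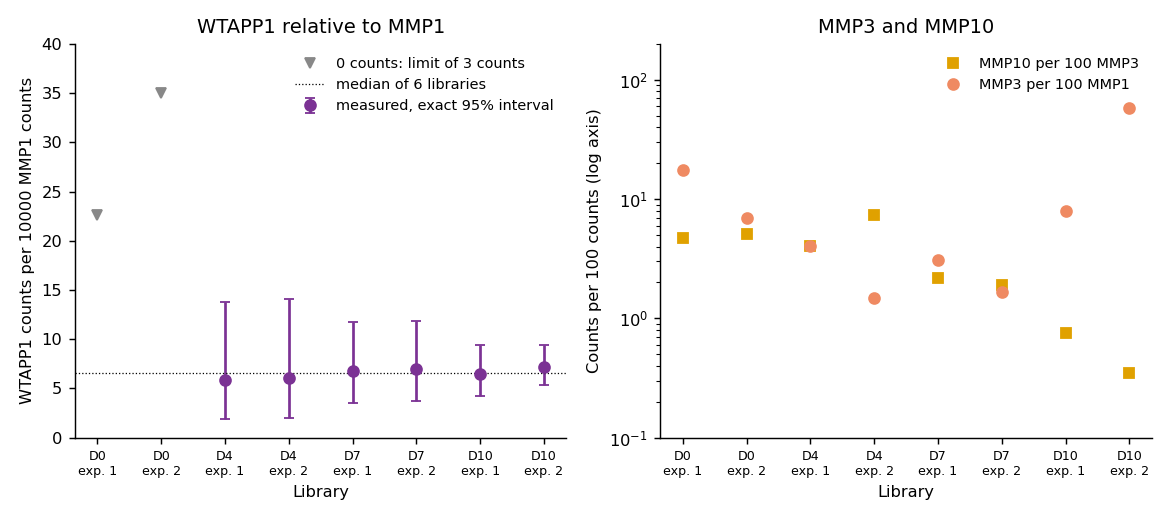
Left, WTAPP1 counts per 10000 MMP1 counts in each library with exact 95% binomial intervals, with triangles at the limit that 3 counts would give where WTAPP1 had 0 counts and a dotted line at the median of 6.58. Right, MMP10 counts per 100 MMP3 counts and MMP3 counts per 100 MMP1 counts in each library (log axis), which vary more than 10-fold between libraries.

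None of the other MMP genes that could be tested passed. Of a list of 19 further MMP genes, 17 were in the table and 8 had enough counts to be tested, and 0 of 8 passed by edgeR with or without the block in any comparison, their median log2 fold change at D10 being -0.15 beside 0.00 over all genes. The membrane-type protease MMP16 had the highest, 1.73 ± 0.72, its D0 libraries holding 5 and 17 counts and its D10 libraries 36 and 35 (edgeR adjusted p = 0.592). MMP11, also called stromelysin 3, had the lowest, -1.15 ± 0.37, its D0 libraries holding 273 and 215 counts and its D10 libraries 135 and 84 (adjusted p = 0.337). The remaining 6, MMP7, MMP15, MMP17, MMP19, MMP24 and MMP28, lay between -0.87 and 0.22. The cluster neighbours MMP8, MMP12, MMP13 and MMP27 had at most 7, 4, 1 and 1 counts in any library and were not tested. MMP7 also lies on that strand of chromosome 11, within 1 Mb of the MMP1 start, and it was tested. With at most 11 counts in any library, its log2 fold change at D10 was 0.04 ± 0.58 (edgeR adjusted p = 0.998).

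Genes around the cluster were examined within 1 Mb of the MMP1 start. The table held 20 such genes besides the 4 cluster genes, and 0 of the 11 tested passed by edgeR without the block in any comparison, their log2 fold changes at D10 having a median of 0.31. With the block, 1 gene passed between D10 and D4, where 2.55% of all genes were called, DYNC2H1, a motor protein gene of cilia, with a log2 difference of 0.99 ± 0.21 (edgeR adjusted p = 0.0470). The D4 libraries held 135 and 476 counts of it and those of D10 358 and 690, so experiment 2 was higher on both days and the days overlapped.

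Activators and regulators of MMPs formed a second list of 12 genes, of which 11 were tested. By edgeR 2 of 11 rose at D10 and 0 fell, beside 0.29% of all genes called in either direction. They were PLAT and PLAU, which encode the tissue and urokinase plasminogen activators that produce plasmin, an activator of MMP precursors. PLAT had 11760 and 12617 counts in the D0 libraries and 94446 and 149164 in those of D10, a log2 fold change of 3.34 ± 0.45 with edgeR adjusted p = 0.0402. PLAU went from 14100 and 13743 to 81426 and 53870, a log2 fold change of 2.29 ± 0.33 with adjusted p = 0.0480. Both also had a positive slope over days, as called for 1.18% of all genes in either direction, 0.33 ± 0.04 for PLAT (edgeR adjusted p = 0.00528) and 0.22 ± 0.03 for PLAU (0.00735). Their D10 and D0 libraries did not overlap. At D10 PLAT lost its call without any 1 library other than D10 of experiment 1 and PLAU without any 1 of the D0, D4 or D7 libraries, with edgeR adjusted p up to 0.299 and 0.430. With only D0 and D10 in the fit the adjusted p was 0.151 for PLAT and 0.208 for PLAU, and with at least 10 counts required in all libraries it was 0.0562 and 0.0618. The slope of PLAT kept its call without any library, and that of PLAU lost it without either D0 library, with adjusted p = 0.0547 and 0.0513.

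PLAUR, the urokinase receptor, had a log2 fold change of 1.32 ± 0.24 at D10, which passed by edgeR with the block (adjusted p = 0.00333), where 4.99% of all genes were called, and not without it (0.0779). The other 8 tested regulators, among them the proprotein convertase FURIN and the inhibitors RECK and TIMP4, passed in no comparison, and the median over the 11 was 0.14 at D10, beside 0.00 over all genes. Of 11 ADAM genes, a related protease family, 9 were tested and 0 passed by edgeR without the block, while with it, beside the same 4.99% of all genes, ADAM33 at D10 fell by 1.72 on the log2 scale (adjusted p = 0.0449).

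**Figure D5:**
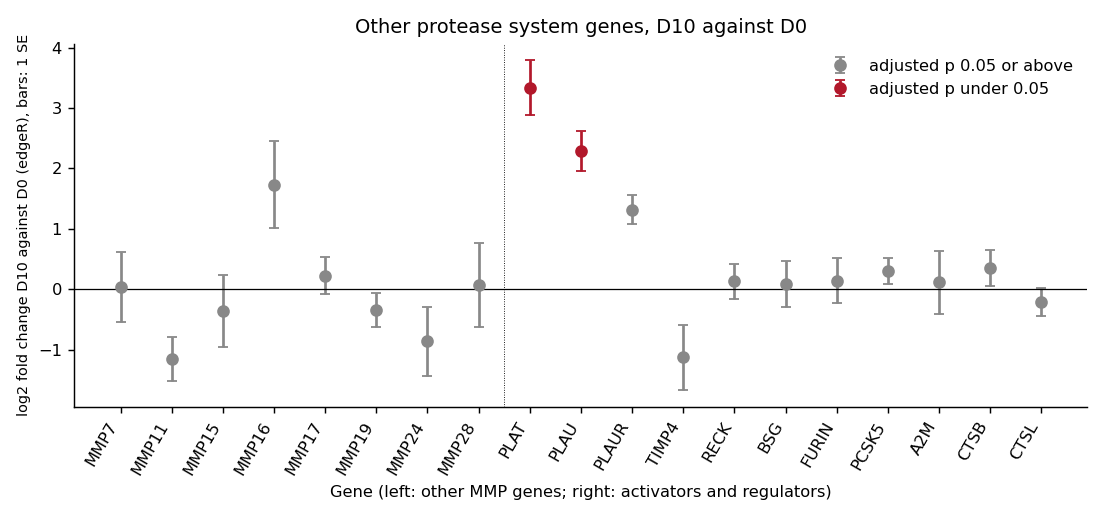
Log2 fold change at D10 against D0 with 1 standard error (edgeR) for the 8 other MMP genes tested, left of the dotted line, and for 11 activators and regulators, right of it. PLAT at 3.34 and PLAU at 2.29 pass an adjusted p of 0.05 and the others do not.

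The genes whose level across the 8 libraries was most like that of a member were sought among the 13798 tested by Pearson's correlation of log2 CPM, as a description without a test, since the libraries share groups and experiments. For MMP1 these were STC1 (r = 0.993), PITPNC1 (0.990), WTAPP1 (0.987), BDKRB1 (0.983) and GALK2 (0.977). STC1, which encodes the secreted hormone stanniocalcin 1, was at 61.5 and 44.6 CPM at D0 and at 1464 and 2172 CPM at D10. PITPNC1 went from 7.79 and 5.68 CPM to 19.1 and 22.01 CPM, a similar order over a smaller range. BDKRB1, a bradykinin receptor gene, went from 59.2 and 48.8 CPM to 106 and 109.6 CPM.

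For MMP3 the closest were ELK1 (r = 0.990), GRK5 (0.988) and CEBPB (0.987), the first and last of which encode transcription factors. CEBPB was at 87.4 and 60.6 CPM at D0 and at 152 and 229 CPM at D10, again with the higher D10 value in experiment 2. MMP3 and MMP10 correlated with r = 0.961 and MMP3 and MMP1 with r = 0.814. For TIMP3 the closest were NIFK (0.985), FRA10AC1 (0.980) and LCA5L (0.976), and for MMP2 they were A2M (0.944), the gene of a broad protease inhibitor, TIFA (0.937) and AC074117.1 (0.935). Of the genes outside the cluster, MMP14 correlated with MMP1 at r = 0.746, TIMP1 at 0.522, MMP2 at 0.126, TIMP3 at 0.0323 and TIMP2 at -0.459. TIMP2 and TIMP3 ran opposite to each other over the 8 libraries, with r = -0.816.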

How the data were processed

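RNA from IMR90 fibroblasts was measured in 8 libraries, 4 groups by day of medium in 2 independent experiments. The table deposited by the authors holds unnormalized read counts for each gene, which were used, and 8 columns of normalized values, which were not. The submitters' processing notes name STAR 2.5, DESeq2 and GRCh38, and the counter and its strand setting are not given in the sources used here. Per the labels the RNA was poly(A)-selected and the library kit was stranded. The header of 1 column reads DO and was taken as D0 replicate 1, and 0 columns remained unmatched. Total counts were 11708193 to 13395912. Of 27696 identifiers 99.6% were in GENCODE 29, which gave positions, exon lengths and transcript sequences on GRCh38.

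Genes were filtered with filterByExpr (13798 left), scaled with TMM, and fitted by group, or by day as a number, with edgeR 4.0.16 (glmQLFit and glmQLFTest, R 4.3.3) over all 8 libraries. P-values were adjusted by Benjamini-Hochberg over all genes tested and called at 0.05. They measure the spread of 2 experiments only. The standard errors given with edgeR values were derived from the test, as the size of the log2 value divided by the square root of its F statistic. CPM values used TMM-scaled totals, and log2 CPM a prior count of 2. All 9 genes passed the filter, WTAPP1 only through the groups in which it had counts. Ratios were tested on log2((count + 2)/(count + 2)) by exact permutation in Python 3.11.15. Alternatives were a replicate block, leaving out each library, fits on the compared groups only, DESeq2 1.42.0, its size factors, library totals, a minimum of 10 counts in all libraries and no filter, and for ratios a prior count of 0.5 and no block.

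Same-numbered libraries come from the same experiment, and their deviations from group means correlated across genes, which are not independent replicates, with r from 0.418 to 0.722 in all 6 pairs of groups, so the numbers pair the libraries. The common dispersion fell from 0.0792 to 0.0242 when the block was added. On simulated counts for 13606 genes, the D10 comparison recovered 90 of 100 genes changed 4-fold and 100 of 100 changed 16-fold, with 12 unchanged genes called. Only genes above a minimum mean level were changed, and no difference between experiments was simulated. These rates therefore do not cover genes with few counts or with experiments as far apart as for MMP3. The members and lists were chosen with earlier results of these data known. Named genes are all 9 members, tested MMP genes, list or neighbouring genes past the threshold, and the genes most correlated with MMP1 (5), MMP3, TIMP3 and MMP2 (3 each). From the regulator list and the sequences 1 item each is not reported here. Regulators that passed nowhere, marker genes and C3 are named besides these as examples.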

Additional observations from a re-analysis of the deposited data

How the results depend on the processing

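With edgeR, the 2 members called at D10 became 4 without a filter and with DESeq2, 1 with library totals, 1 with at least 10 counts in every library (which drops MMP10 and WTAPP1), 0 with the compared groups only, 3 with the replicate block, and 0 to 4 when leaving out 1 library. At D4 the 0 members called became 1 and at D7 2, on either day with DESeq2, without a filter and with the replicate block, and stayed 0 without any 1 library. Between D10 and D4 the 0 became 2 with DESeq2, 4 without a filter, 3 with the block and 0 to 2 without 1 library. Between D10 and D7 it became 2 with DESeq2 and 3 without a filter. For the trend the 2 members became 4 with DESeq2, 1 with at least 10 counts in every library and 3 without a filter, and stayed 2 with the block and without any 1 library. WTAPP1, with 0 counts at D0, is among the members counted. Of 27696 genes, DESeq2 and the fit without a filter called 0.159% and 0.0758% at D4, 0.404% and 0.336% at D7, 0.538% and 0.531% between D10 and D4, 0.238% and 0.278% between D10 and D7, and 1.76% and 0.809% for the trend. In the same order, the block called 0.275%, 1.25%, 2.55%, 0.319% and 4.3% of the 13798 genes left by the filter. The 40 genes called at D10 became 688 with the block, 379 with DESeq2, 371 without a filter, 20 with at least 10 counts, 25 with library totals, 0 with the compared groups only and 0 to 155 without 1 library. The cause of these shifts was not tested, except that fewer samples or genes enter some fits. Of the 20 ratios 15 passed, 16 with a prior count of 0.5, 15 with no replicate block (exact over all arrangements) and 10 to 20 without 1 library. D10 against D0 alone, 2 libraries against 2, cannot go below an exact permutation p of 0.333. No result reversed among those called. Of the 5 genes most like MMP1, 2 stayed among the first 5 by Spearman's rho and 3 by deviations within experiments, and of the 3 most like MMP3, TIMP3 and MMP2 1, 1 and 2 by rho (ties widen these lists) and 0, 0 and 0 within experiments. The replicate block changed no other call of a member. A lone library left in a group by leaving out the other was assumed to vary like the other groups. Depth limits WTAPP1 and MMP10, which had at most 52 and 148 counts.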
